A study of Mus musculus with 8 samples.

Results

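The 10 genes described here are Prc1, Anln, Ect2, Racgap1, Nusap1, Spag5, Aspm, Hmmr, Depdc1a and Depdc1b. Most of them act in the spindle midzone, at the cleavage furrow or on the mitotic spindle. The 10 were picked by name, and the choice took in genes with the largest differences between the sorted fractions. The values of that contrast are therefore a description with no test. Every probe set that the platform's annotation joined to 1 of these symbols alone was taken, which gave 25 of 45101 probe sets, and the 10 genes are among 18193 named genes. All 10 were among the 12177 genes with a log2 signal above 5 on at least 2 arrays, the set on which tests were run. Expression was measured in 2 mouse tumour lines, the colon carcinoma colon26 and LLC (Lewis lung carcinoma), on 1-colour Affymetrix arrays. Both lines stably carried EGFP driven by the mouse promoter of PSF1. PSF1 is the protein of the Gins1 gene and a subunit of the GINS complex at replication forks. Tumour cells of the low and the high fraction therefore both hold the reporter, which host cells sorted with them would lack. Tumours grew under the skin of mice for 4 weeks (LLC) or 2 weeks (colon26), were taken apart into single cells and were sorted by FACS into EGFP-low and EGFP-high cells. The comparison was made to ask whether PSF1-high tumour cells carry a signature like that of embryonic stem cells. Each of the 4 groups (LLC low, LLC high, colon26 low, colon26 high) had 2 arrays, which the labels call biological replicates 1 and 2, and the host strain is not given in the sources used here. Nothing says whether the numbers stand for separate tumours or mice, and the spread behind the p-values is that between these arrays, which may be technical.

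When a cell divides, antiparallel microtubules between the separating chromosomes are bundled into the central spindle. Prc1 crosslinks these microtubules. Racgap1, with its kinesin partner Kif23, forms the centralspindlin complex there and recruits Ect2, the exchange factor that activates the GTPase RhoA at the cell equator. RhoA drives the actomyosin ring, to which anillin (Anln) ties septins and the membrane, and the ring closes the furrow before the ESCRT machinery cuts the last bridge at the midbody. Nusap1, Spag5 (astrin), Aspm and Hmmr bind microtubules, spindle poles or kinetochore fibres while the spindle forms. Many genes of this group are transcribed late in the cell cycle, through promoter elements named CHR (cell cycle genes homology region) and CCAAT box.

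Promoter stretches of 6 members are printed here because they show how the CHR hexamer sits at the start of most of these genes, and one stretch without it. The sequences are RefSeq's for GRCm38.p6, read 5′ to 3′ along the gene. They run from 100 bases before the annotated transcription start of the gene's first window to 50 after it. Each match to TTTGAA or its reverse complement TTCAAA is in capitals. They lie at chr7:80294351-80294500 (plus strand) for Prc1, chr9:22389157-22389306 (minus strand) for Anln, chr3:27153829-27153978 (minus strand) for Ect2, chr1:139454673-139454822 (plus strand) for Aspm, chr3:159495333-159495482 (plus strand) for Depdc1a and chr2:119618198-119618347 (plus strand) for Nusap1. Prc1, Ect2 and Aspm carry the hexamer on the gene's own strand, Depdc1a on the opposite strand, Anln on both, and Nusap1 on neither.
Prc1: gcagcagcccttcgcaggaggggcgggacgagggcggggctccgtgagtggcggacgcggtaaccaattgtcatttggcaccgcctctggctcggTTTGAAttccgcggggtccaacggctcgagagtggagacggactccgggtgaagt
Anln: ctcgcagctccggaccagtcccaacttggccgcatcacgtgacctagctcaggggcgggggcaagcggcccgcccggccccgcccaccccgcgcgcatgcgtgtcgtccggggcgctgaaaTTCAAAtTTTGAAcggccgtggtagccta
Ect2: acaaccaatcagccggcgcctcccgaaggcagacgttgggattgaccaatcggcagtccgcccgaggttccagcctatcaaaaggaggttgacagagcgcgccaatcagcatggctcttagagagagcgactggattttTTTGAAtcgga
Aspm: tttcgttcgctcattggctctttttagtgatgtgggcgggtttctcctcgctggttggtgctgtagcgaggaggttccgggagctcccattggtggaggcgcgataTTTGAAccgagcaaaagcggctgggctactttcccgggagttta
Depdc1a: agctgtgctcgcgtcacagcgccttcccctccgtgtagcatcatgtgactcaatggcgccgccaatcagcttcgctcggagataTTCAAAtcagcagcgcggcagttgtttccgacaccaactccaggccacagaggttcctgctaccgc
Nusap1: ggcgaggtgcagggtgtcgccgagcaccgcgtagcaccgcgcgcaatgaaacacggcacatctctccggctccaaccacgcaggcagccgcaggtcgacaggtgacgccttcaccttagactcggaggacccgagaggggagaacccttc

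Of the 10 members, 9 had a promoter window in the RefSeq table, each from 250 bases before to 50 bases after a start, and Depdc1b had none. TTTGAA, sought on both strands, occurred in 8 of the 9, against 20.2% of all 27025 genes with a window. In each of the 8 genes a match lay in the last 100 bases of the window, against 5.72% of all genes. That narrower stretch was picked after the positions were seen. Counted from the start of each gene's first window as 0, the first base of the match was at -16 in Depdc1a and -5 in Prc1. It was at 3 in Spag5, 5 in Racgap1, 6 in Aspm and 8 in Hmmr. Anln had a pair of matches at 21 and 28 on opposite strands, and Ect2 had one at 39 and another at -114, upstream of the stretch printed above. Prc1 and Ect2 each had a second window with another start. From that start the matches were at -30 in Prc1 and at 15 and -138 in Ect2. CCAAT, on either strand, occurred in 7 of the 9 members, all but Anln and Nusap1, against 41.1% of all genes. GCGGGAA, a core of E2F sites, occurred in 0 of 9 members against 5.29% of all genes. In these windows 0 matches of one motif shared a base with a match of another. A match is a description of letters, and no match says only that those letters are not in the window.

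**Figure D1:**
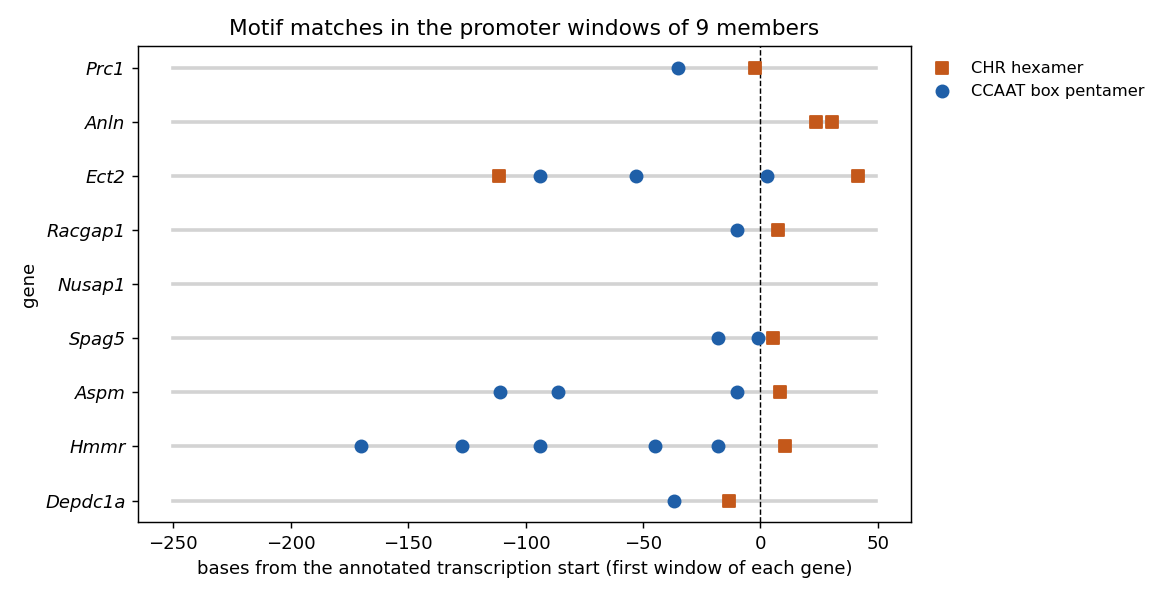
Matches to TTTGAA (squares) and CCAAT (circles), on either strand, in the first promoter window of 9 members, with the distance in bases from the annotated transcription start on the horizontal axis. In 8 of the 9 genes a square lies within the last 100 bases of the window, and Nusap1 holds neither motif.

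Gins1, whose promoter drove the reporter, had log2 signals of 7.23 and 7.14 in the low and 8.42 and 8.51 in the high cells of LLC. In colon26 the low cells gave 7.56 and 6.97 and the high cells 8.29 and 8.38, so the sort and the gene ran the same way in all 4 pairs. The numbers marked a split among the arrays. Control transcripts read at their 3′ and 5′ ends had a median log2 signal 2.41 to 2.70 higher at the 3′ end on arrays numbered 1, and between -0.01 and 0.35 on those numbered 2. Within a line, high and low arrays sharing a number deviated together and were treated as pairs. Of 4 lung epithelium markers Nkx2-1, Sftpc and Scgb1a1 were under a log2 signal of 5 in LLC. Of 4 colon markers Cdx1 and Vil1 were under it in colon26, and Cdx2 and Krt20 were not. The linear signal of that list summed to 3190 to 3920 in colon26 low and 3676 to 5016 in colon26 high cells. Of 5 general epithelial markers Cdh1 and Krt19 were under 5 in every group, and the list summed to 5803 to 7757 over the LLC arrays and 158 to 198 over the colon26 arrays. Most macrophage markers were lower in the high fractions of both lines. Of 17 macrophage markers 11 fell in LLC and 15 in colon26, and of 12 fibroblast markers 9 fell in LLC and 5 in colon26 (limma, adjusted p under 0.05). Among all genes tested 6.04% were called lower in LLC and 1.58% in colon26.

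All 10 members had higher signals in EGFP-high than in EGFP-low cells in all 4 pairs, and within a line high and low arrays overlapped for none of them. Differences are given as high minus low on the log2 scale, with the standard error from limma in which line and number were the block. The lines share the estimate of spread in this fit. A gene's SE is therefore the same in LLC and colon26, even where its pairs differ more in colon26. Over both lines they ran from 1.47 (Anln) to 2.37 (Depdc1a), with a median of 1.96. The median was 1.99 in LLC and 1.84 in colon26, where that of all genes tested was 0.04 and 0.08. Among all 12177 genes 17.4% in LLC and 12.0% in colon26 had both high arrays above both low arrays, and 21.4% were higher in 4 of 4 pairs. With these values the members were chosen, so nothing is read from the counts.

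**Figure D2:**
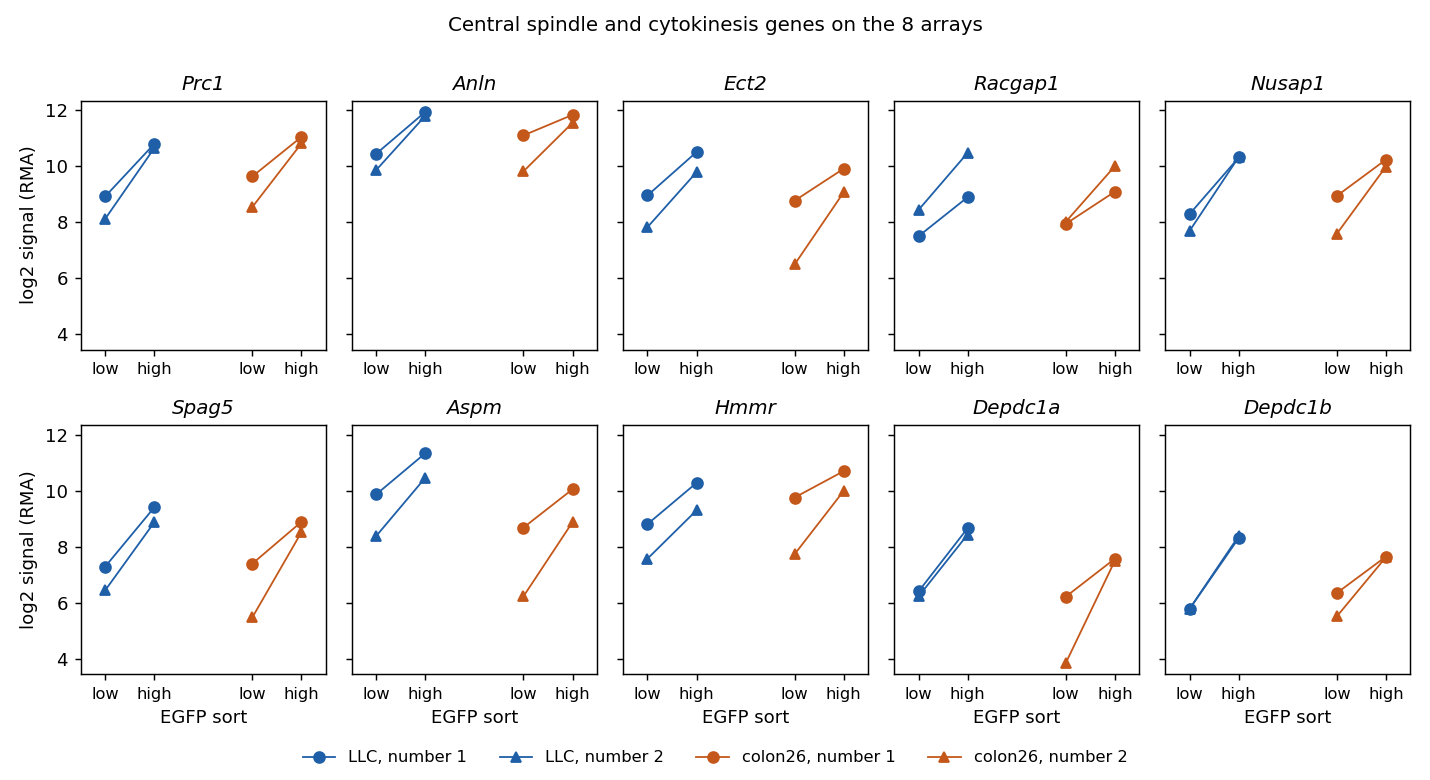
Log2 RMA signal of each member on the 8 arrays, 1 panel a gene, with the EGFP-low and the EGFP-high array of each pair joined by a line (LLC left, colon26 right in each panel; circles number 1, triangles number 2). Every line climbs from low to high, and in colon26 the low array numbered 2 lies below that numbered 1 for 9 of the 10 genes.

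Prc1, the microtubule crosslinker of the midzone (Entrez gene 233406), had log2 signals of 8.91 and 8.11 in LLC low and 10.79 and 10.64 in LLC high cells. In colon26 they were 9.63 and 8.54 in low and 11.04 and 10.81 in high cells. The high arrays of both lines lay above every low array. High minus low was 2.20 (SE 0.24) in LLC and 1.84 (SE 0.24) in colon26, or 4.06-fold over both.

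Racgap1 (Entrez gene 26934), the GTPase-activating subunit of centralspindlin, was read at 7.50 and 8.43 in LLC low and 8.89 and 10.47 in LLC high cells, and at 7.94 and 8.01 in the low and 9.08 and 9.99 in the high cells of colon26. It was the member whose array numbered 2 was above that numbered 1 in all 4 groups. The high cells exceeded the low by 1.71 (SE 0.24) in LLC and 1.57 (SE 0.24) in colon26, or 3.12-fold over both.

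Ect2 (Entrez gene 13605), the RhoA exchange factor that centralspindlin recruits, had signals of 8.95 and 7.82 in LLC low and 10.50 and 9.78 in LLC high cells. In colon26 the low arrays read 8.76 and 6.49, the widest split between the numbers for this gene, and the high arrays 9.91 and 9.06. High and low arrays were apart by at least 0.83 in LLC and 0.30 in colon26. The log2 difference was 1.76 (SE 0.29) in LLC and 1.86 (SE 0.29) in colon26, or 3.50-fold over both.

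Anln (Entrez gene 68743), the scaffold of the contractile ring, had the smallest difference of the 10 over both lines. In LLC its signals were 10.44 and 9.86 in low and 11.93 and 11.80 in high cells. In colon26 the low cells gave 11.09 and 9.81 and the high cells 11.83 and 11.54. In the colon26 pair numbered 1 the high array was above the low one by 0.73, against 1.73 in the pair numbered 2. The log2 difference was 1.71 (SE 0.24) in LLC and 1.23 (SE 0.24) in colon26, or 2.78-fold over both.

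Nusap1 (Entrez gene 108907), which binds and stabilises microtubules near chromatin, had signals of 8.29 and 7.69 in LLC low and 10.31 and 10.32 in LLC high cells, and of 8.94 and 7.59 in the low and 10.23 and 9.98 in the high cells of colon26. The 4 high arrays lay within a narrow band, and each was above every low array. High minus low was 2.32 (SE 0.26) in LLC, exceeded among 12177 genes only by that of Depdc1b, and 1.84 (SE 0.26) in colon26.

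Spag5 (Entrez gene 54141), or astrin, a kinetochore and spindle-pole protein, had signals of 7.29 and 6.44 in LLC low and 9.40 and 8.87 in LLC high cells. In colon26 they were 7.39 and 5.48 in low and 8.89 and 8.52 in high cells. The difference was nearly the same in both lines, at 2.27 (SE 0.30) in each, or 4.82-fold over both, and only 2 of 12177 genes had a larger one.

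Aspm (Entrez gene 12316), a spindle-pole protein whose human counterpart is mutated in a form of primary microcephaly, had signals of 9.87 and 8.39 in LLC low and 11.34 and 10.46 in LLC high cells, and of 8.68 and 6.23 in the low and 10.05 and 8.88 in the high cells of colon26. The numbers of a group differed by 0.87 to 2.45, and high and low arrays of colon26 were apart by only 0.20. High minus low was 1.77 (SE 0.28) in LLC and 2.01 (SE 0.28) in colon26.

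Hmmr (Entrez gene 15366), the hyaluronan-mediated motility receptor, which acts on spindle microtubules, had signals of 8.80 and 7.57 in LLC low and 10.28 and 9.30 in LLC high cells, and of 9.76 and 7.73 in the low and 10.70 and 9.99 in the high cells of colon26. Within a line high and low arrays were apart by 0.49 in LLC and 0.24 in colon26. The log2 difference was 1.60 in each line (SE 0.27), or 3.03-fold over both.

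Depdc1a (Entrez gene 76131) and Depdc1b (Entrez gene 218581) are a pair of related proteins, each with a DEP domain and a region resembling RhoGAP domains. Depdc1a had signals of 6.40 and 6.23 in LLC low and 8.66 and 8.43 in LLC high cells, and of 6.21 and 3.85 in the low and 7.57 and 7.49 in the high cells of colon26. The colon26 low array numbered 2, at 3.85, was its only value below 5, and the colon26 pairs differed by 1.36 and 3.65. High minus low was 2.23 (SE 0.40) in LLC and 2.50 (SE 0.40) in colon26, and the mean over both lines was 2.37, or 5.16-fold. That mean was the largest of 12177 genes, an order that rests on the low array at 3.85: without colon26 pair 2 it was 1.80, below the 1.93 of Depdc1b. Depdc1b read 5.79 on both low and 8.31 and 8.39 on the high arrays of LLC. In colon26 its low arrays read 6.35 and 5.51 and its high arrays 7.65 and 7.63. Its difference of 2.56 (SE 0.22) in LLC was the largest of 12177 genes there, and in colon26 it was 1.71 (SE 0.22). Among the members, Depdc1b had the widest gap between its differences in the lines, LLC minus colon26 being 0.86 (SE 0.31). The other members ran from -0.27 (Depdc1a) to 0.48 (Anln, Nusap1), and 6 of the 10 had the larger difference in LLC.

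By group means, both high groups were above both low groups for all 10 genes. LLC high was the highest group for 8 genes and colon26 high for Prc1 and Hmmr, whereas LLC low was the lowest for 6 and colon26 low for Ect2, Spag5, Aspm and Depdc1a. The ranges of the lower pair of groups overlapped for 9 genes, all but Depdc1a. Those of the upper pair overlapped for 5 (Anln, Ect2, Racgap1, Spag5, Hmmr). Between the higher of the low groups and the lower of the high groups the ranges overlapped for Aspm and Hmmr only. For this order of high and low groups and this overlap the shares of all genes were not counted, so nothing is read from them. The limma fit with the block called the 10 members higher in LLC, where 4.98% of all genes were called higher, in colon26 (2.18%) and over both lines (7.47%). Without the block 0 of 10 were called in either line or over both. In colon26 7 were called with a block shared by the lines, 2 after quantile normalization, 7 without colon26 pair 1 and 0 without colon26 pair 2. Nothing is read from these counts, since these differences chose the members.

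Pairs of number 2 gave larger differences than pairs of number 1. The median over the members was 1.71 in pair 1 and 2.14 in pair 2 of LLC, and 1.30 and 2.33 in colon26. That of all genes tested was 0.05 and 0.03 in LLC, and 0.02 and 0.18 in colon26. In LLC 9 of 10 members had the larger difference in pair 2, all but Depdc1a, and in colon26 all 10 did. The gap lay more in the low than in the high cells. Number 1 minus number 2 had a median of 0.70 for the low and 0.19 for the high cells of LLC, and 1.63 for the low and 0.27 for the high cells of colon26, where the median of all genes was between -0.02 and 0.04. The control transcripts' 3′ to 5′ differences given above split the same arrays by number, and their part in these gaps was not tested.

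Most of the 25 probe sets of the members gave the same direction with different sizes. A log2 signal above 5 on at least 2 arrays was reached by 23 of them. Of these, 22 were higher in EGFP-high cells in 4 of 4 pairs, and 1, a second probe set of Nusap1 (1416310_at), in 3 of 4, its colon26 pair numbered 2 giving -0.07. The remaining 2 were a Racgap1 probe set that stayed at 3.40 or lower on every array (1441889_x_at) and an Hmmr probe set above 5 on 1 array (1429871_at). Aspm and Hmmr had 5 probe sets each. Those of Aspm in colon26 pair 2 gave 2.65 for 1422814_at, the one used for the gene, 0.91 for 1452459_at, 0.81 for 1441520_at, 0.05 for 1458560_at and 0.03 for 1458873_at. In colon26 1458873_at was under 5 on all 4 arrays and 1441520_at on 3 of 4, so their differences there carry little information. With the mean of all its probe sets, these dim ones included, the colon26 difference of Aspm was 0.80 in place of 2.01, and over both lines it was 1.11 in place of 1.89.

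Probe sets of 1 gene also ran opposite ways between the numbers. One Hmmr probe set (1450157_a_at) read 5.37 and 6.13 in low and 6.68 and 8.63 in high cells of LLC. In colon26 it read 5.08 and 5.89 in low and 6.39 and 8.72 in high cells, so that number 2 was the higher in every group. Hmmr 1425815_a_at, the set used for the gene, was higher on number 1 in every group. One Spag5 probe set (1427498_a_at) read 4.14 and 5.41 in low and 4.79 and 7.68 in high cells of LLC. In colon26 it read 4.07 and 5.57 in low and 4.57 and 6.59 in high cells, again higher on number 2, while Spag5 1433893_s_at was higher on number 1. Over the 23 probe sets, 9 were higher on number 1 in 4 of 4 groups and 4 in 0 of 4. High minus low within a pair was positive for the discordant sets too, at 1.31, 2.50, 1.31 and 2.83 for Hmmr 1450157_a_at and 0.65, 2.27, 0.50 and 1.02 for Spag5 1427498_a_at. Where the probe sets lie on their transcripts was not analysed here.

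**Figure D3:**
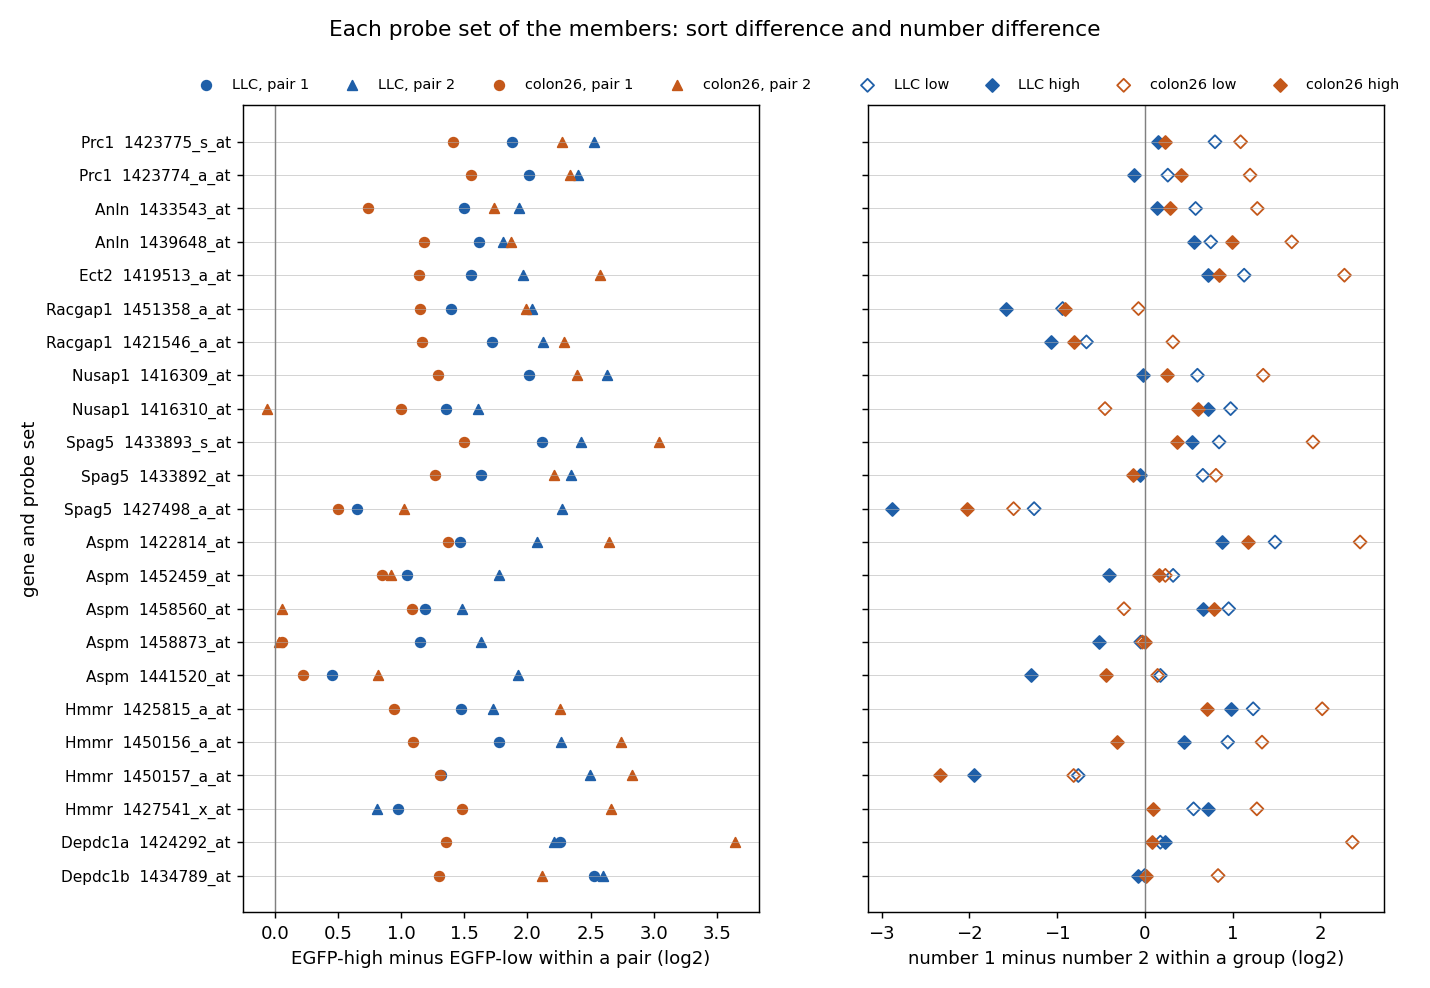
The 23 probe sets of the members above the signal filter, with the log2 difference between EGFP-high and EGFP-low cells in each of the 4 pairs on the left and the log2 difference between arrays numbered 1 and 2 in each group on the right. On the left 1 point, of Nusap1 1416310_at, lies below 0; on the right Hmmr 1450157_a_at and Spag5 1427498_a_at lie below 0 in all groups while other probe sets of the same genes lie above it.

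Over the 8 arrays, which share lines, numbers and normalization, the profiles of the members were alike to different degrees. Anln and Nusap1 were the closest pair (Pearson r 0.99), and Spag5 was closest to the mean of the members (r 0.997). Racgap1 stood farthest from the mean (r 0.70). Its nearest member was Depdc1b (r 0.82), and with Aspm it gave r 0.39. Number 1 minus number 2 ran from -1.58 to -0.07 over the groups for Racgap1 and from 0.87 to 2.45 for Aspm. The part of the numbers in these r values was not tested. Among genes outside the group, the 10 most like the mean of the members were led by Ska1 (r 0.994), of the kinetochore's Ska complex, the kinase Melk (0.994), the ubiquitin-conjugating enzyme Ube2t (0.993) and Oip5 (0.992), which loads centromeric histone. The others were Cdca5 (0.989), or sororin, the condensin subunit Ncaph (0.989), the nuclear import factor Kpna2 (0.988), the spindle protein Ckap2 (0.986), Kif18a (0.985) and the ribosome assembly factor Wdr12 (0.985). These correlations describe 8 arrays in which EGFP-high and EGFP-low differ, and they carry no test.

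The lines were compared within each sorted fraction, a contrast that the choice of the members did not use. In low cells 4 of the 10 members were higher in LLC and in high cells 8 were. In low cells the sign often depended on the pair: leaving out 1 pair turned it for Anln, Ect2, Racgap1, Nusap1, Spag5, Hmmr and Depdc1b. In high cells it turned for Racgap1 alone. In limma with 4 group means 0 of 10 passed in either fraction, and 0 had an unadjusted p under 0.05. The adjusted p was between 0.29 and 0.996 in low cells and between 0.22 and 0.937 in high cells, while 14.0% of all genes passed in low and 11.3% in high cells. The largest difference between group means was that of Aspm, which was 1.67 higher in LLC than in colon26 among low cells (SE 0.93, limma adjusted p = 0.296) and 1.44 higher among high cells (SE 0.93, limma adjusted p = 0.42). The low-cell value was 0.44 without colon26 pair 2, 2.90 without colon26 pair 1 and 0.53 with the mean of all its probe sets, and in high cells it was 0.85 without colon26 pair 2. Depdc1a was 1.28 higher in LLC low cells (SE 0.70, limma adjusted p = 0.289) and 1.02 higher in LLC high cells (SE 0.70, limma adjusted p = 0.46). Depdc1b was at -0.14 in low cells (SE 0.31) and 0.71 in high cells (SE 0.31, limma adjusted p = 0.22). Hmmr was at -0.56 in each fraction (SE 0.77), and in low cells it was at 0.45 without colon26 pair 1.

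Arrays of the same number deviated together across the lines as well, and with the number as a block shared by the lines some of these calls changed. Aspm then passed in low cells (SE 0.33, limma adjusted p = 0.0046) and in high cells (SE 0.33, limma adjusted p = 0.011). Depdc1b passed in high cells (SE 0.24, limma adjusted p = 0.049). Depdc1a did not pass (limma adjusted p = 0.066 in low cells and 0.14 in high cells). That made 1 of 10 members in low and 2 of 10 in high cells, against 46.2% and 39.2% of all genes in the same fit. Without the colon26 arrays numbered 1, Depdc1a passed in low cells in the fit of group means, at 2.47 (limma adjusted p = 0.027), a value that rests on the single colon26 low array at 3.85. Without the colon26 arrays numbered 2 it was at 0.10 (limma adjusted p = 0.88). The arrays of the lines did not overlap for 1 of 10 members in low cells and for 5 of 10 in high cells, against 52.3% and 52.0% of all genes. The non-overlapping members were Depdc1a in low cells and Prc1, Nusap1, Aspm, Depdc1a and Depdc1b in high cells. The lines' tumours also grew for different times, so line and time cannot be told apart.

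**Figure D4:**
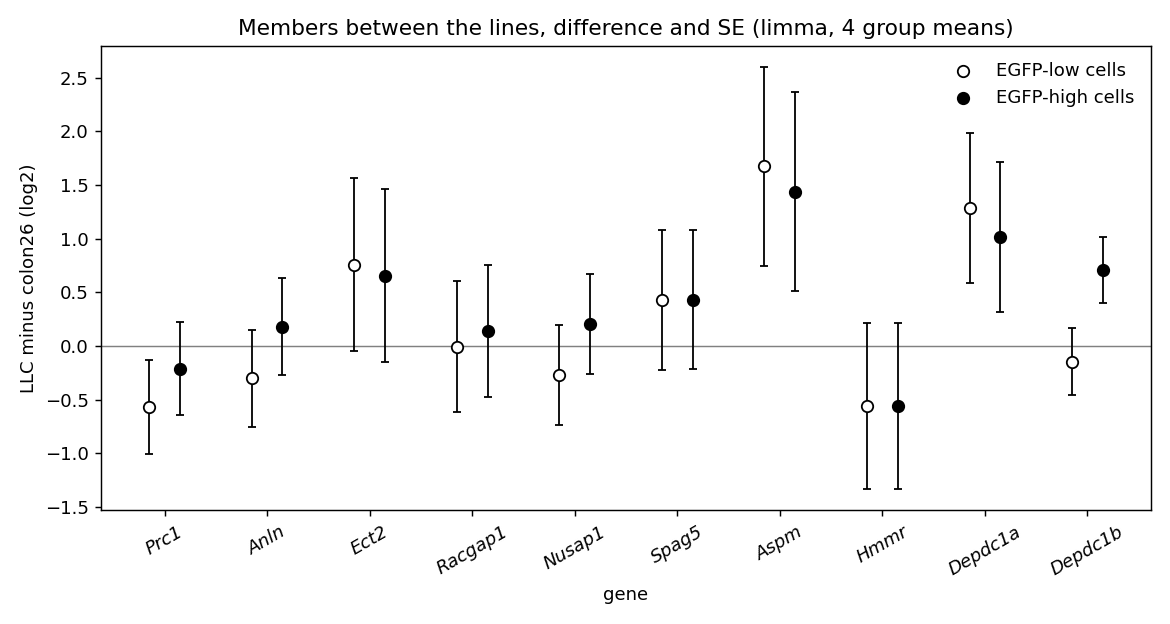
Difference between LLC and colon26 for each member on the log2 scale, in EGFP-low cells (open circles) and EGFP-high cells (filled circles), with bars of 1 standard error from limma with 4 group means (n = 2 arrays a group). Aspm and Depdc1a lie farthest above 0 in both fractions, and Depdc1b lies above 0 in high cells only.

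Genes that work with the members in division were listed by textbook roles, with earlier results of these data known for some. Of 85 such genes, 77 were tested, of which 25 rose in LLC, 19 in colon26 and 25 in the mean of the lines, while 1 fell in LLC and 0 in colon26 or over both (limma, adjusted p under 0.05 with the block). At an unadjusted p under 0.05, 4 were lower in LLC, 1 in colon26 and 3 over both. The shares of all genes called lower were 6.04% in LLC, 1.58% in colon26 and 5.57% over both. The rises were spread unevenly over the lists. Of the 30 tested midzone, passenger and spindle genes 22 rose over both lines, where 7.47% of all genes rose. Of the 47 tested ring, septin and abscission genes 3 did. This grouping of the lists was not planned, and it sets lists with many rises apart from lists with few. The contrast between the groupings is therefore a description. Without the block 0 of 77 were called in limma in either line or over both, with 21, 20 and 22 at an unadjusted p under 0.05. The colon26 count was 0 without the colon26 pair numbered 2 and 12 without the pair numbered 1, and it was 5 after quantile normalization.

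Among 11 tested genes of the midzone and the chromosomal passenger complex, 9 rose over both lines, and the median difference was 1.93 in LLC and 1.46 in colon26. Aurkb, the kinase of the passenger complex, went from 7.42 and 7.79 to 9.36 and 10.48 in LLC and from 7.37 and 6.71 to 8.94 and 9.61 in colon26. It rose by 2.28 over both lines (SE 0.21, limma adjusted p = 1e-04). Kif20a, the mitotic kinesin that carries the passenger complex to the midzone, rose by 2.02 (SE 0.19, limma adjusted p = 1e-04), and Kif20b, a related midzone kinesin, by 1.95 (SE 0.14, limma adjusted p = 3.5e-05). Incenp, the scaffold of the passenger complex, rose by 1.43 (SE 0.15, limma adjusted p = 0.00019). Each was higher in 4 of 4 pairs. With the mean of all probe sets Kif20b was at 1.03 and Incenp at 0.90, and Incenp then lost its call in colon26. Kif23, Kif4, Birc5, Cdca8 and Plk1 also rose over both lines, Plk1 without passing in colon26, and Clasp1 and Clasp2 were not called. Kif14 was below the signal filter.

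Of 19 tested spindle partners 13 rose over both lines, 13 in LLC and 9 in colon26, with medians of 1.14 and 0.88. Kif11, the kinesin that slides spindle microtubules apart, went from 7.41 and 7.12 to 9.36 and 9.51 in LLC and from 7.24 and 6.27 to 8.72 and 8.69 in colon26, a rise of 2.06 over both (SE 0.17, limma adjusted p = 7e-05). Kifc1, a minus-end-directed kinesin, rose by 1.72 (SE 0.13, limma adjusted p = 4e-05). Kif18a, which limits the length of kinetochore microtubules, rose by 1.81 (SE 0.17, limma adjusted p = 0.00011), and Dlgap5, a microtubule-bundling protein, by 1.50 (SE 0.14, limma adjusted p = 0.00012). With the mean of all probe sets Kif18a was at 0.99. Tpx2, Kif18b, Kif2c, Tacc3 and Knstrn rose in both lines as well. Ckap5, Wdr62, Tubg1 and Haus1 rose in LLC and over both lines without passing in colon26. Wdr62 lay near the filter, with 4.30 and 4.86 in LLC low and 5.02 and 6.36 in LLC high cells. A difference between the lines was called for 0 of the 77 genes by limma, where 1.41% of all genes were called. At an unadjusted p under 0.05 the difference was larger in LLC for 2 of the 77 and larger in colon26 for 2.

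The ring, septin and ESCRT genes had medians near 0. Of 19 tested contractile ring genes 2 rose over both lines, and the median was 0.02 in LLC and 0.09 in colon26. Diaph3, a formin that nucleates actin, went from 6.23 and 5.92 to 7.79 and 7.35 in LLC and from 6.85 and 5.75 to 7.97 and 7.40 in colon26, a rise of 1.44 over both (SE 0.14, limma adjusted p = 0.00013). Cit, the citron kinase that holds the ring to the midbody, rose in LLC by 1.46 (SE 0.21, limma adjusted p = 0.0017) and was at 0.33 in colon26 (SE 0.21, limma adjusted p = 0.45). With the mean of all its probe sets Cit was at 0.63 in LLC and 0.40 over both lines, and neither was called. The difference between the lines for Cit was 1.13 (SE 0.29, limma adjusted p = 0.11).

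Of 8 tested septins 0 rose in either line by limma with the block, 0 also at an unadjusted p under 0.05, and the medians were -0.12 in LLC and 0.22 in colon26. Septin8 fell in LLC by 0.68 (SE 0.18, limma adjusted p = 0.038), from 8.89 and 8.76 to 8.36 and 7.94. This call was lost in most alternatives and held with median centring, a filter of 7 and a trend with robust moderation; with the mean of all its probe sets the value was -0.26. In colon26 it was at 0.18 (SE 0.18, limma adjusted p = 0.65). The septins with the highest signals, Septin7 and Septin11, differed by 0.05 (SE 0.13) and 0.26 (SE 0.14) over both lines. Of 20 tested abscission genes 1 rose, in both lines. This was Cep55, the midbody protein that recruits ESCRT factors, which went from 9.66 and 8.67 to 11.44 and 10.79 in LLC and from 10.05 and 8.18 to 11.09 and 10.55 in colon26, a rise of 1.83 over both (SE 0.20, limma adjusted p = 0.00022). The other 19 were not called, and the medians of the list were -0.12 in LLC and 0.11 in colon26. At an unadjusted p under 0.05 in limma, 2 of the 20 were lower in LLC, 1 in colon26 and 2 over both. Counting Cep55, 1 was higher in LLC, 2 in colon26 and 1 over both.

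**Figure D5:**
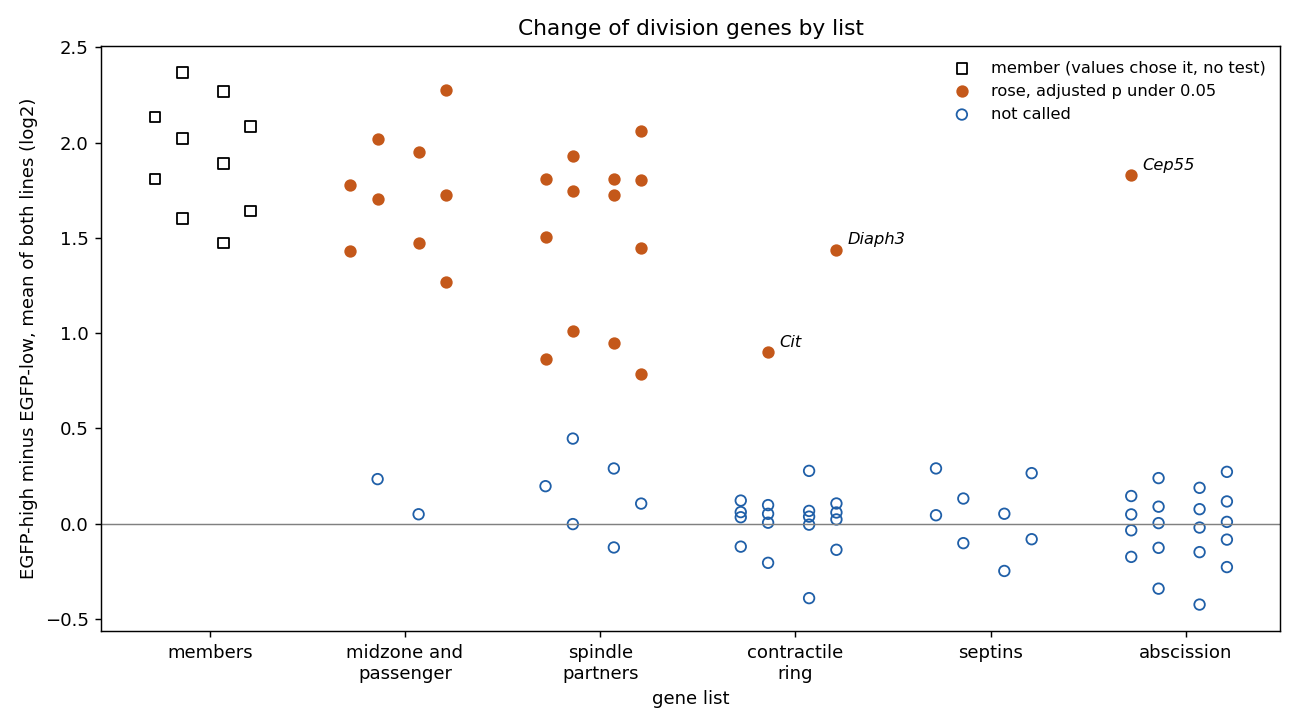
Log2 difference between EGFP-high and EGFP-low cells over both lines for the 10 members (squares, no test) and the 77 tested genes of 5 lists (filled circles rose with a limma adjusted p under 0.05, open circles were not called). The 22 midzone, passenger and spindle genes that rose lie between 0.78 and 2.28. All but Diaph3, Cit and Cep55 of the ring, septin and abscission genes lie between -0.43 (Chmp2b) and 0.29 (Septin10).

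The hexamer of the promoter stretches printed above was counted in the same lists. TTTGAA occurred on either strand in the window of 7 of 8 midzone and passenger genes, 8 of 14 spindle partners, 0 of 19 contractile ring genes, 2 of 7 septins and 3 of 17 abscission genes. Of the pathway genes that rose over both lines 18 had a window, and 11 of these held a match (61.1%), 10 of them in the last 100 bases. Of the genes not called 42 had a window, and 8 held a match (19.0%), 3 of them in the last 100 bases (7.14%). Those 3 were Septin7, Kif15 and Cdk5rap2. Among all genes 20.2% held a match and 5.72% held one in the last 100 bases, so the shares of the genes not called lay near these. Nusap1, a member, had no match in its window.

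Most macrophage markers fell in both lines, and 9 of 12 fibroblast markers in LLC and 5 in colon26. The shares of all genes called lower were 6.04% and 1.58% in these lines. None of the macrophage markers rose by limma, and 1 was higher in LLC at an unadjusted p under 0.05. The summed linear signal of the 17 macrophage markers was 2782 to 3122 in LLC low and 1083 to 1146 in LLC high cells, and 7601 to 12280 in the low and 1895 to 2485 in the high cells of colon26. The median difference of the list was -1.12 in LLC and -2.82 in colon26. Cd163 and Aif1 were under a log2 signal of 5 on both LLC low arrays, and 5 of the 17 markers were under it in each high group. The 12 fibroblast markers summed to 32530 to 48320 in LLC low and 10540 to 11070 in LLC high cells, and to 40000 to 49610 in the low and 33600 to 34970 in the high cells of colon26, with median differences of -1.99 and -0.68. None of the 12 was under 5 on both arrays of a colon26 group, and Fap and Thy1 were in LLC high. Of 9 tested endothelial markers 0 fell in LLC (limma, 2 at an unadjusted p under 0.05) and 3 in colon26. Of 3 tested neutrophil markers 2 fell in LLC and 3 in colon26. Of 5 tested T cell markers 0 fell in LLC (limma, 1 at an unadjusted p under 0.05), with a median of 0.10, and 1 in colon26. Thy1 was on both the fibroblast and the T cell list and is counted in each. In such bulk samples fewer cells of a type and less RNA per cell cannot be told apart, and the part of these cells in the members' differences was not tested.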

How the data were processed

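RNA extracted with Trizol from sorted tumour cells was hybridised as biotin-labelled cRNA to 1-colour Affymetrix arrays, per the labels' protocols. The authors deposited log2 values summarised by RMA, per the submitters' processing notes; its software and options: not given in the sources used here. Descriptions of the 4 colon26 samples name LLC, and their titles, source and cell line fields, which say colon26, were followed. In the platform's annotation 34945 probe sets had 1 gene symbol, 932 several and 9160 none, and 64 were controls. Rock2 and Septin5 had no probe set of their own symbol alone, and Kif14, Myh10, Myl9, Septin4 and Chmp4c were below the filter. A gene's value was that of its probe set with the highest mean. Genes above a log2 signal of 5 on at least 2 arrays, 12177, entered fits by limma 3.58.1 (R 4.3.3), and p-values were adjusted over all of them by Benjamini-Hochberg, with a threshold of 0.05. The fits were also run on simulated data. There the shift between the numbers was the same in every group, or absent for the comparison of the lines. On the arrays here that shift differed by group for the members, so the simulation does not cover this setting.

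High minus low was fitted with line and replicate number as the block (2 residual degrees of freedom, prior 8.25), and the lines were compared with 4 group means (4 residual degrees of freedom, prior 2.34). The number was taken as pairing because deviations from the group means of same-numbered arrays correlated at 0.89 in LLC, 0.84 in colon26 and 0.74 to 0.84 between lines. The number of arrays, 2 a group, limits the precision. The members and lists were chosen with earlier results of these data known. All members are named, and of each list up to 4 genes called over both lines (smallest p first) or, where none was, the 2 of highest signal, every gene called lower, and the 10 genes most like the members' mean; other list genes were named after their values were seen. Promoter windows came from RefSeq for GRCm38.p6, and motifs were sought on both strands. Alternatives were the block, scaling, filter, probe set choice, moderation and leaving out each pair.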

Additional observations from a re-analysis of the deposited data

Results flagged for a closer look

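Septin8, a member of the septin family of filament-forming GTPases, had pairs that moved opposite ways in the lines. EGFP-high minus EGFP-low in LLC was -0.53 in pair 1 and -0.82 in pair 2. In colon26 it was 0.16 in pair 1 and 0.19 in pair 2. The LLC difference minus the colon26 difference was -0.85 (SE 0.26), which did not pass in limma over all genes (adjusted p = 0.17, unadjusted p = 0.0072). With 2 arrays a group, single arrays were not screened for standing apart from their group.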

How the results depend on the processing

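The median difference of the 10 members kept its direction under all alternatives run, in each line and over both. The block, the filter and the moderation leave that value as it is. Leaving out a pair returns the median of the line's other pair. Scaling and probe set choice could move it. In LLC it ran from 1.83 (mean of all probe sets) to 2.06 (quantile normalization). In colon26 it ran from 1.65 (mean of all probe sets) to 1.92 (median centring). Nothing is read from this, since these differences chose the members. Pathway genes that rose depended on the replicate block: without it 0 were called in either line or over both (limma, 77 genes). With it, quantile normalization left 5 in colon26, and leaving out a pair gave 0 to 21 there, the lowest without colon26 replicate 2 and 12 without colon26 replicate 1. The 1 gene that fell in LLC became 0 without the block, with a block shared by the lines, after quantile normalization and with no filter, 2 with a filter of 7 or a trend with robust moderation, and 0 to 1 on leaving out a pair; Septin8, the gene, kept its call only with median centring, a filter of 7 and a trend with robust moderation. In colon26 1 fell with a filter of 7 or the mean of all probe sets; over both lines 1 fell after quantile normalization or with a filter of 7, and 2 with the mean of all probe sets. Members called between lines were 1 in low and 2 in high cells with the replicate block shared by the lines, and 0 to 1 in low cells on leaving out a pair. No called value changed sign, but values not called did, such as Septin11 in LLC, -0.25 with the mean of all probe sets, and members between the lines on leaving out a pair. The causes were not tested. Signals near a log2 value of 5, as for Depdc1a in colon26 low cells, limit what can be measured.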
